A study of Mus musculus with 16 samples.

Results

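Embryonic and cardiac-type muscle genes code for forms of contractile and calcium-handling proteins that skeletal muscle uses while it develops, or that the adult heart uses. The genes considered are Myh3 (embryonic myosin heavy chain), Myh8 (perinatal myosin heavy chain), Myl4 (the atrial and embryonic essential myosin light chain), Actc1 (cardiac alpha-actin), Tnnt2 (cardiac troponin T) and Sln (sarcolipin, a small membrane protein of the sarcoplasmic reticulum). They were chosen by name, as every probe whose symbol in the deposited table equals one of these 6 genes. This gave 4 genes of 18097 gene symbols in the table, read by 6 of its 25697 probes: 2 for Actc1, 2 for Myh8, 1 for Myl4 and 1 for Sln. Myh3 and Tnnt2 matched no probe, and these 2 genes are not analysed here.

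The data are Illumina bead array intensities of RNA from hamstring muscle of female mice, taken 2 days after surgery, on 16 arrays. Mice had a spinal cord injury (SCI) between vertebrae T12 and T13 or sham surgery, together with cardiotoxin (CDTX, a snake venom peptide that kills muscle fibres) or saline injected into the muscle. There are 4 arrays in each of the 4 groups, Sham+Saline, Sham+CDTX, SCI+Saline and SCI+CDTX, and the submitters describe SCI+CDTX as the single condition in which neurogenic heterotopic ossification forms. SCI+CDTX array 2 was excluded from the submitters' final analysis per the labels and was left out here too, which leaves 15 arrays. No strain, age or genotype is given in the labels used here, and the same muscle tissue, sex and day are shared by all groups. The labels number the arrays within a group without saying that each is a separate animal, so the p-values measure the spread between these samples. All SCI arrays lie on slide 1 and all sham arrays on slide 2, so a difference between SCI and sham cannot be told apart from a difference between slides, whereas CDTX and saline were compared within a slide. On each slide the CDTX arrays carry the letters A to D and the saline arrays E to H. A CDTX effect therefore cannot be told apart from an effect of that order.

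In an adult limb the fibres normally use alpha-skeletal actin and adult myosins, and the developmental forms return while fibres regenerate or lose their nerve supply. Cardiac alpha-actin is the striated actin of the embryo and the heart, and small amounts persist in adult limb muscle. Sarcolipin binds the calcium pump SERCA and uncouples its ATP use from calcium uptake. It is most abundant in the atria and in slow or developing muscle.

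The probes are 50 bases long, and their first 30 bases are shown because 2 genes are read by 2 probes each, and the probes of one gene did not always move alike. Each sequence is from the deposited table, 5′ to 3′.
Actc1 ILMN_2598916: cttatattcaggatgaccgtattgtgcttc
Actc1 ILMN_2767216: tctcatcagtcattgtacagtttgtttaca
Myh8 ILMN_1223735: gctgggtcacttgcctctctgggtttactt
Myh8 ILMN_2978038: cacatcttgcagaggaaggaggctgccaag
Myl4 ILMN_2610744: tacggagtattggactcacatggcttctct
Sln ILMN_2918875: ctcctccagcatctctgacccacactcaca
The Actc1 probes start at bases 1235 and 1293 of the transcript, and the Myh8 probes at bases 6071 and 6000. The Myl4 probe starts at base 799 of its transcript and the Sln probe at base 321. The table places Actc1 in cytoband 2qE4, Myh8 in 11qB3 and Myl4 in 11qE1 of chromosome 11, and Sln in 9qA5.3 of chromosome 9. The genome build of that annotation is not named, so no positions are given for the probes.

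Every one of the 6 probes was detected on 16 of 16 arrays at a detection p under 0.05, and all 6 passed the filter that kept 14763 probes. Detection was not equally firm. Actc1 was bright, with raw intensities from 2136.4 to 15502.3 for ILMN_2598916 and from 871.8 to 5342.8 for ILMN_2767216 over the 16 arrays. Sln ran from 252.7 to 4374.4 and Myl4 from 401.5 to 1575.1. Myh8 was dim, from 142.4 to 510.6 for ILMN_1223735 and from 102.2 to 160.5 for ILMN_2978038, and the latter was detected on SCI+CDTX array 2 with a detection p of 0.04887. Each value averages between 23 and 56 beads, and its bead standard error was at most 6.43% of the value.

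Depth and quality differed between groups. Mean raw intensity was 230 to 277 on the Sham+Saline arrays and 320 to 373 on the other arrays, and between 11114 and 13694 probes were detected per array. Levels below are log2 normalized intensities on an offset of 16, which understates changes of dim probes, and a call means a limma p under 0.05 after Benjamini-Hochberg adjustment over all 14763 probes. A level compares arrays for 1 probe and does not rank 1 probe against another. A probe difference score was built from 2780 other genes with at least 2 kept probes. For each gene the level of its second brightest probe was subtracted from that of its brightest, and the differences were centred over the 16 arrays. The score is the main pattern of these differences (their first singular vector), which held 33.1% of their variation. Its sign was set to make Sham+CDTX positive, so it does not measure how far the probes of a gene differ. It set the Sham+CDTX arrays (0.35 to 0.39) and SCI+CDTX array 2 (0.28) apart from the remaining arrays (-0.27 to -0.07). Results that use Sham+CDTX are given with this score as a covariate, over all 16 arrays, where it moved a call, a sign or a count. Within groups the score differed most in SCI+CDTX, between array 2 (0.28) and the other arrays (-0.12 to -0.07). The slope of the covariate thus rests largely on that excluded array. Values with the score extend this slope to Sham+CDTX and are no independent estimate. In whole muscle, fewer fibres that express a gene and less RNA per fibre cannot be told apart.

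**Figure D1:**
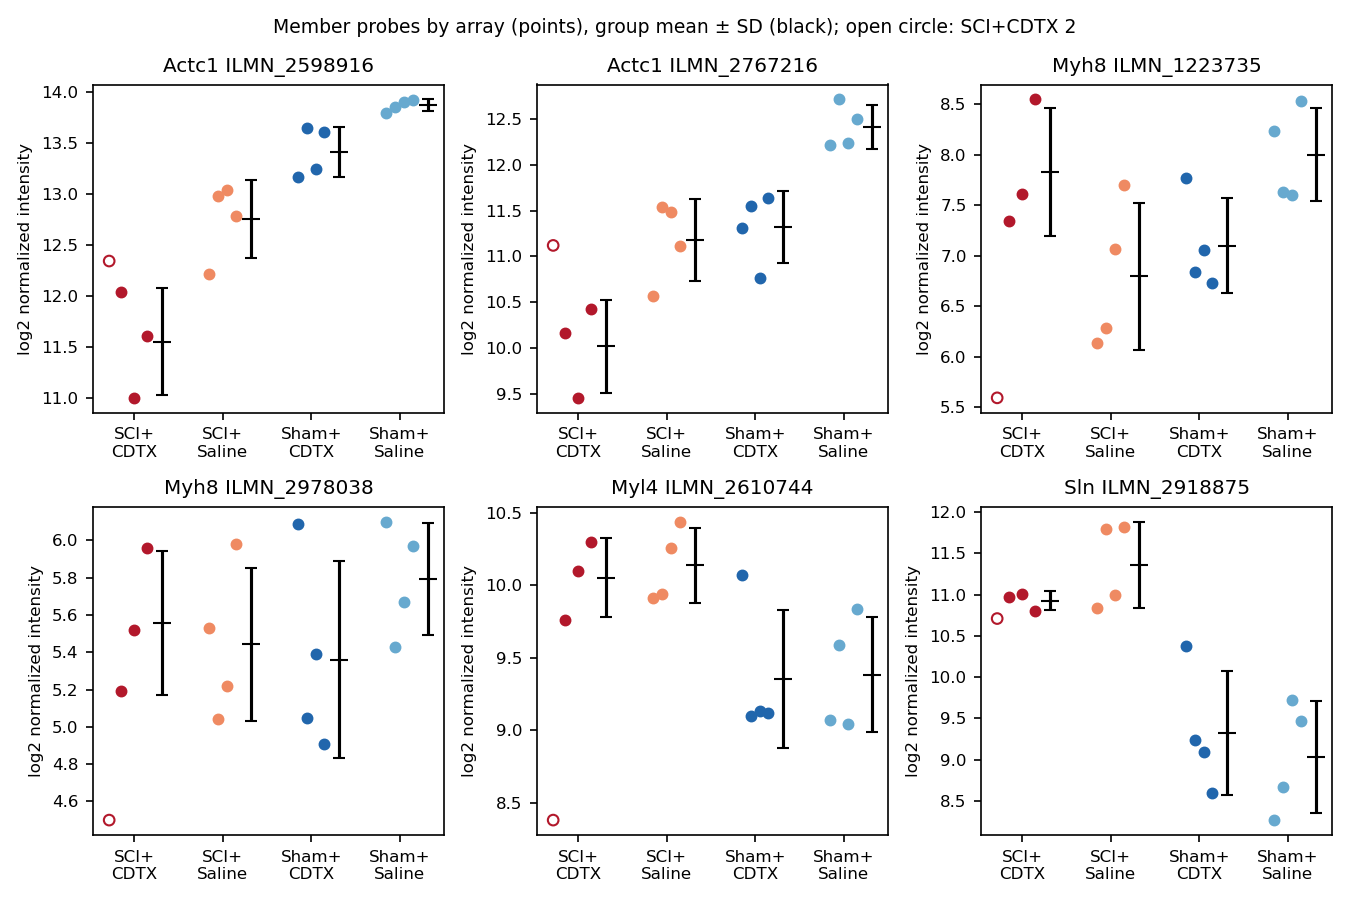
Log2 normalized intensity of the 6 probes (vertical axis, a separate scale in each panel) on every array of the 4 groups (horizontal axis); points are arrays, the black mark and bar are the group mean and SD over 3 arrays in SCI+CDTX and 4 in the others, and the open circle is SCI+CDTX array 2 normalized with all 16 arrays. Actc1 is lowest in SCI+CDTX and highest in Sham+Saline, Sln is higher on every SCI array than on every sham array, and Myl4 on SCI+CDTX array 2, at 8.38, lies below the 15 other arrays.

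Sln showed the largest rise with SCI of the 4 genes, with or without CDTX. Sarcolipin mRNA was 5.03-fold higher with SCI in saline muscle and 3.03-fold higher in CDTX muscle. CDTX itself moved Sln past the threshold in neither surgery group. The log2 levels of Sln in SCI+CDTX were 10.97, 11.01 and 10.80 in replicates 1, 3 and 4, and in SCI+Saline 10.84, 11.80, 10.99 and 11.82 in replicates 1 to 4. In Sham+CDTX they were 10.38, 9.24, 9.09 and 8.60, and in Sham+Saline 8.27, 8.67, 9.72 and 9.47. The lowest SCI array, at 10.80, was above the highest sham array, at 10.38, so the SCI and sham groups did not overlap, while the CDTX and saline groups overlapped within each surgery.

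The group means of Sln were 10.93 ± 0.11 (SD, n = 3) in SCI+CDTX, 11.36 ± 0.52 (n = 4) in SCI+Saline, 9.33 ± 0.75 (n = 4) in Sham+CDTX and 9.03 ± 0.68 (n = 4) in Sham+Saline. In that order, neither SCI+Saline and SCI+CDTX nor Sham+CDTX and Sham+Saline differed beyond their spread. The SCI effect was 2.33 (SE 0.34, limma adjusted p = 4.83e-05) in saline muscle and 1.60 (SE 0.37, limma adjusted p = 0.00293) in CDTX muscle, on the log2 scale. The CDTX effect was -0.44 (95% interval -1.21 to 0.34, limma adjusted p = 0.372) in SCI mice and 0.30 (-0.42 to 1.01, limma adjusted p = 0.501) in sham mice. The SCI effects in CDTX and saline muscle differed by -0.73 (SE 0.50, limma adjusted p = 0.324), which did not pass the test.

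The raw intensities of Sln, before any normalization, had the same order. They ran from 1931.8 to 2360.7 in SCI+CDTX, from 2197.1 to 4374.4 in SCI+Saline, from 551.7 to 1526 in Sham+CDTX and from 252.7 to 694.6 in Sham+Saline. Sham+CDTX replicate 1 was the highest sham array on both scales, and without it the SCI effect on Sln in CDTX muscle was 1.95 (limma adjusted p = 0.000294). On all 16 arrays the SCI effects on Sln were 1.53 (limma adjusted p = 0.00566) in CDTX muscle and 2.32 in saline muscle. Under the probe difference score as a covariate, the call in CDTX muscle was lost at 1.72 (limma adjusted p = 0.173), and the effect in saline muscle was 2.29 (limma adjusted p = 9.36e-05).

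In the authors' deposited table of their final analysis the group means of Sln were 491.6 in Sham+Saline, 733.2 in Sham+CDTX, 1897.5 in SCI+CDTX and 2984.6 in SCI+Saline. The p-values against SCI+CDTX in the authors' deposited table were 0.21432 for SCI+Saline, 5e-05 for Sham+CDTX and 0 for Sham+Saline. The order of groups in that table was that of the log2 levels.

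Sln binds the SERCA pumps, so these were read beside it. Atp2a1, the fast-fibre SERCA, whose probe was among the brightest of the array, was not called in any of the 4 effects, with log2 fold changes of 0.31 and -0.18 for CDTX in SCI and sham mice and 0.35 and -0.14 for SCI in CDTX and saline muscle. Atp2a2, the slow-fibre and cardiac SERCA, fell with SCI by 1.07 on the log2 scale in CDTX muscle (limma adjusted p = 0.00575) and by 0.68 in saline muscle (limma adjusted p = 0.0487). Neither fall of Atp2a2 was called with all 16 arrays (-0.64 and -0.68). Once the probe difference score was included, its SCI effect in CDTX muscle was 0.83 (limma adjusted p = 0.423), of the opposite sign, and in saline muscle -0.88 (limma adjusted p = 0.0159), while after median scaling the latter was -0.20 (limma adjusted p = 0.677). Phospholamban (Pln), another regulator of the same pump, was detected on 2 of 16 arrays and was not tested.

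Actc1 went the opposite way. Cardiac alpha-actin mRNA was highest in Sham+Saline and lowest in SCI+CDTX on both probes, 4.97-fold lower by ILMN_2598916 and 5.25-fold lower by ILMN_2767216. By ILMN_2598916 the log2 levels were 12.04, 11.00 and 11.61 in SCI+CDTX replicates 1, 3 and 4, and 12.21, 12.98, 13.04 and 12.78 in SCI+Saline. They were 13.16, 13.64, 13.24 and 13.60 in Sham+CDTX and 13.79, 13.85, 13.90 and 13.92 in Sham+Saline. No pair of groups overlapped on this probe, and Sham+Saline was the tightest group.

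By ILMN_2767216 the log2 levels of Actc1 were 10.17, 9.46 and 10.43 in SCI+CDTX and 10.57, 11.54, 11.48 and 11.11 in SCI+Saline. In Sham+CDTX they were 11.31, 11.55, 10.77 and 11.64, and in Sham+Saline 12.21, 12.71, 12.23 and 12.50. On this probe SCI+Saline and Sham+CDTX overlapped, and both lay between SCI+CDTX and Sham+Saline.

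The group means of Actc1 by ILMN_2598916 were 11.55 ± 0.52 (SD, n = 3) in SCI+CDTX, 12.75 ± 0.38 (n = 4) in SCI+Saline, 13.41 ± 0.24 (n = 4) in Sham+CDTX and 13.87 ± 0.06 (n = 4) in Sham+Saline. By ILMN_2767216 they were 10.02 ± 0.50, 11.17 ± 0.45, 11.32 ± 0.39 and 12.41 ± 0.24. The gap between the probes averaged 2.09 ± 0.27 in Sham+CDTX (n = 4) and 1.45 to 1.58 in the other groups.

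With CDTX in SCI mice Actc1 fell by 1.20 on the log2 scale on ILMN_2598916 (SE 0.22, limma adjusted p = 0.000292) and fell by 1.15 on ILMN_2767216 (SE 0.26, limma adjusted p = 0.00148). In sham mice the probes parted. ILMN_2767216 fell by 1.10 on the log2 scale (SE 0.24, limma adjusted p = 0.000913), while ILMN_2598916 had a difference of -0.46 (SE 0.21, limma adjusted p = 0.0769) that was not called although all 4 Sham+CDTX arrays were below all 4 Sham+Saline arrays. With the probe difference score the CDTX effects on Actc1 in sham mice were -2.10 (limma adjusted p = 0.0318) on ILMN_2767216 and -1.27 (limma adjusted p = 0.107) on ILMN_2598916. The brightest probe of every array has a level of 14.38 after normalization, and ILMN_2598916 lay 0.46 to 0.58 below it in Sham+Saline, against 1.67 to 2.17 for ILMN_2767216. Whether brightness compressed the level of ILMN_2598916 there was not tested. Its effect passed without SCI+CDTX replicate 3 (-0.45, limma adjusted p = 0.0452) or SCI+Saline replicate 1 (-0.47, limma adjusted p = 0.0447). It also passed after median scaling (-0.52, limma adjusted p = 0.0363) and in a fit of the compared groups alone (-0.46, limma adjusted p = 0.0186).

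Actc1 fell with SCI in both kinds of muscle. In CDTX muscle the log2 difference was -1.86 (limma adjusted p = 7.93e-06) on ILMN_2598916 and -1.30 (limma adjusted p = 0.000932) on ILMN_2767216. In saline muscle the differences were -1.11 (limma adjusted p = 0.000487) and -1.24 (limma adjusted p = 0.000706). The interaction was -0.75 (SE 0.30, limma adjusted p = 0.0836) on ILMN_2598916 and -0.06 (SE 0.35, limma adjusted p = 0.928) on ILMN_2767216, so neither probe passed the test of unequal CDTX effects. The interaction on ILMN_2598916 passed without SCI+CDTX replicate 1 (-1.0, limma adjusted p = 0.0228) or SCI+Saline replicate 1 (-0.91, limma adjusted p = 0.0291), and after median scaling (-0.96, limma adjusted p = 0.0179). SCI+Saline lay below Sham+CDTX by ILMN_2598916 (-0.66, limma adjusted p = 0.0132), and the difference by ILMN_2767216 was -0.14 (95% interval -0.65 to 0.36, limma adjusted p = 0.662). The former missed the threshold without SCI+Saline replicate 1 (-0.48, limma adjusted p = 0.0609) and after median scaling (-0.47, limma adjusted p = 0.057). With the probe difference score it was 0.09 (limma adjusted p = 0.923).

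Under the probe difference score as a covariate, the SCI effect on Actc1 in CDTX muscle was -1.14 (limma adjusted p = 0.15) on ILMN_2598916 and -0.39 (limma adjusted p = 0.789) on ILMN_2767216, so both calls were lost. In saline muscle, where no array has a high score, the effects were -1.18 and -1.32 and both were called. In the authors' deposited table the group means of Actc1 by ILMN_2598916 were 18854.3 in Sham+Saline, 10435.2 in Sham+CDTX, 7296.4 in SCI+Saline and 2916.1 in SCI+CDTX, the same order as the log2 levels. By ILMN_2767216 they were 5833.3, 2496.7, 2563.6 and 1101.5 in the same groups. There SCI+Saline lay above Sham+CDTX, the reverse of the log2 means.

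Alpha-skeletal actin (Acta1), the actin of adult fibres, was read beside Actc1. Its 4 log2 fold changes lay between -0.10 and 0.09, none was called, and its group means ran from 13.77 ± 0.11 in Sham+CDTX (SD, n = 4) to 13.90 ± 0.10 in SCI+Saline (n = 4). Its probe lay 0.38 to 0.72 below the brightest probe on the 15 arrays, so its small differences do not show that Acta1 was stable. Actin genes are alike in sequence, and cross-hybridisation between Actc1 and Acta1 was not tested.

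Myl4 had a smaller SCI effect. The atrial and embryonic light chain was 1.68-fold higher with SCI in saline muscle and 1.62-fold higher in CDTX muscle. Its log2 levels were 9.76, 10.10 and 10.30 in SCI+CDTX replicates 1, 3 and 4, and 9.91, 9.94, 10.26 and 10.44 in SCI+Saline. They were 10.07, 9.10, 9.13 and 9.12 in Sham+CDTX and 9.07, 9.59, 9.04 and 9.84 in Sham+Saline. SCI+Saline did not overlap Sham+Saline, but SCI+CDTX overlapped Sham+CDTX through Sham+CDTX replicate 1, which lay among the SCI arrays.

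The group means of Myl4 were 10.05 ± 0.27 (SD, n = 3) in SCI+CDTX, 10.14 ± 0.26 (n = 4) in SCI+Saline, 9.35 ± 0.48 (n = 4) in Sham+CDTX and 9.38 ± 0.39 (n = 4) in Sham+Saline. The SCI effect on Myl4 was 0.75 (SE 0.23, limma adjusted p = 0.0178) in saline muscle and 0.70 (SE 0.25, limma adjusted p = 0.0384) in CDTX muscle. The CDTX effect was -0.08 (95% interval -0.60 to 0.43) in SCI mice and -0.03 (-0.51 to 0.45) in sham mice, neither called, and the interaction was -0.05 (limma adjusted p = 0.933). In the authors' deposited table the group means of Myl4 were 1091, 1135.6, 703.2 and 600.7 in the same order of groups. The p-values against SCI+CDTX in that table were 0.99168 for SCI+Saline, 0.10611 for Sham+CDTX and 0.00485 for Sham+Saline.

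The Myl4 calls depended on the arrays and the processing. In CDTX muscle the SCI effect missed the threshold after median scaling (0.59, limma adjusted p = 0.0855) and without background correction (0.62, limma adjusted p = 0.0582). It also missed it without a detection filter (0.70, limma adjusted p = 0.0967). Among alternatives other than leaving out an array, it passed in 4 of 10 in CDTX muscle and in 7 of 10 in saline muscle. With all 16 arrays the SCI effect was 0.27 (limma adjusted p = 0.65) in CDTX muscle and 0.75 (limma adjusted p = 0.116) in saline muscle, with SCI+CDTX array 2 at 8.38. Without Sham+CDTX replicate 1 the effect in CDTX muscle was 0.94 (limma adjusted p = 0.00358). In CDTX muscle the effect passed in 10 of 15 fits with 1 array left out, with effects from 0.58 to 0.94. It missed the threshold without SCI+CDTX replicate 3 or 4 (0.68 and 0.58) and without Sham+CDTX replicate 2, 3 or 4 (0.62, 0.63 and 0.62). In saline muscle it missed the threshold without Sham+Saline replicate 1 or 3 (0.64 in both, limma adjusted p = 0.0588 and 0.0578). Once the probe difference score was included, the Myl4 effect in CDTX muscle was -1.24 (limma adjusted p = 0.129), a change of sign. In saline muscle it was 0.96 (limma adjusted p = 0.00416). The CDTX effect on Myl4 in sham mice was called with the score, at 2.37 (limma adjusted p = 0.00783).

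Myl1, the essential light chain of adult fast fibres, whose probe lay 0.40 or less below the brightest probe of each array, was not called in any of the 4 effects, with log2 fold changes of -0.07 and 0.20 for CDTX in SCI and sham mice and -0.14 and 0.13 for SCI in CDTX and saline muscle. Myl6b, another light chain of slow and embryonic muscle, followed a different course. It rose with CDTX in sham mice by 1.21 (limma adjusted p = 0.000447) and fell by 0.83 on the log2 scale with CDTX in SCI mice (limma adjusted p = 0.0163). With the probe difference score the Myl6b effect in sham mice was -1.71 (limma adjusted p = 0.0398), a called change of sign, and with all 16 arrays that in SCI mice was -0.35 (limma adjusted p = 0.508).

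Myh8 was the gene whose CDTX effect differed between SCI and sham mice, on 1 of its probes. By ILMN_1223735 the perinatal myosin heavy chain was 2.06-fold higher with CDTX in SCI mice and 1.86-fold lower with CDTX in sham mice. The log2 levels were 7.34, 7.61 and 8.55 in SCI+CDTX replicates 1, 3 and 4, and 6.13, 6.28, 7.07 and 7.70 in SCI+Saline. They were 7.77, 6.84, 7.06 and 6.73 in Sham+CDTX and 8.24, 7.63, 7.60 and 8.53 in Sham+Saline. Each pair of groups overlapped, so the calls rest on means with wide spreads.

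The group means of Myh8 by ILMN_1223735 were 7.84 ± 0.64 (SD, n = 3) in SCI+CDTX, 6.80 ± 0.73 (n = 4) in SCI+Saline, 7.10 ± 0.47 (n = 4) in Sham+CDTX and 8.0 ± 0.46 (n = 4) in Sham+Saline. The CDTX effect was 1.04 (SE 0.36, limma adjusted p = 0.0252) in SCI mice and -0.90 (SE 0.33, limma adjusted p = 0.0319) in sham mice. The interaction, the first effect minus the second, was 1.94 (SE 0.49, limma adjusted p = 0.00742). With SCI in saline muscle Myh8 fell by 1.20 on the log2 scale (limma adjusted p = 0.0103), and in CDTX muscle the difference was 0.74 (95% interval -0.02 to 1.49, limma adjusted p = 0.139).

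The Myh8 calls depended on the arrays and the scaling. On all 16 arrays the CDTX effect in SCI mice was 0.47 (limma adjusted p = 0.472) and the interaction 1.37 (limma adjusted p = 0.195), with SCI+CDTX array 2 at a level of 5.59, below every other array. Without SCI+CDTX replicate 4 the CDTX effect on Myh8 in SCI mice was 0.68 (limma adjusted p = 0.176), and it also missed the threshold without SCI+Saline replicate 1 or 2, at 0.82 and 0.87. In sham mice the CDTX effect missed it without Sham+CDTX replicate 2, 3 or 4 (-0.81, -0.89 and -0.78) or Sham+Saline replicate 1 or 4 (-0.82 and -0.72). After median scaling in place of quantile normalization the CDTX effect in sham mice was -0.11 (limma adjusted p = 0.821), beside a median over all probes of 0.32 in place of -0.04, and the SCI effect in saline muscle was -0.82 (limma adjusted p = 0.0916). Under the probe difference score the CDTX effect on this probe in sham mice was 2.49 (limma adjusted p = 0.0306), of the opposite sign, and the interaction was -1.06 (limma adjusted p = 0.581).

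Raw Myh8 intensity by ILMN_1223735 averaged 378 ± 116 (SD, n = 3) in SCI+CDTX, 201 ± 74.6 (n = 4) in SCI+Saline, 263 ± 50.6 (n = 4) in Sham+CDTX and 250 ± 82.5 (n = 4) in Sham+Saline. Before normalization the means of the sham groups were therefore close, while the Sham+Saline arrays were dimmer overall. The part of that brightness in their normalized level was not tested. In the authors' deposited table the group means of Myh8 by ILMN_1223735 were 260.3, 93.5, 148.6 and 205.7 in the same order of groups, and the p-values against SCI+CDTX were 0.1301, 0.42241 and 0.85673 for the other groups.

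The second Myh8 probe, ILMN_2978038, was called in 0 of the 7 contrasts, the CDTX effect in sham mice having an unadjusted p of 0.102. Its group means were 5.56 ± 0.39 (SD, n = 3) in SCI+CDTX, 5.44 ± 0.41 (n = 4) in SCI+Saline, 5.36 ± 0.53 (n = 4) in Sham+CDTX and 5.79 ± 0.30 (n = 4) in Sham+Saline. All 4 groups overlapped between 4.91 and 6.10, and the interaction was 0.54 (SE 0.37, limma adjusted p = 0.317). The upper 95% bound of that interaction, 1.32, lies below the 1.94 of ILMN_1223735, on a probe whose changes the offset understates. Without Sham+CDTX replicate 1 its CDTX effect in sham mice was called at -0.67 (limma adjusted p = 0.0253).

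Among the adult fast myosins, relatives of Myh3 and Myh8, Myh2 (fast type 2A) fell in all 4 effects. It fell by 0.65 and 0.94 on the log2 scale with CDTX in SCI and sham mice and fell by 1.54 and 1.83 with SCI in CDTX and saline muscle. Myh1 (type 2X) rose with CDTX in sham mice (0.70, limma adjusted p = 0.00536) and with SCI it fell by 1.31 on the log2 scale in CDTX muscle and fell by 0.55 in saline muscle. Myh4 (type 2B) rose with CDTX in sham mice by 0.35 (limma adjusted p = 0.0363) and was not called in the other effects, at -0.18, -0.27 and 0.26.

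Once the probe difference score was included, several of these myosin calls were lost. The SCI effect in CDTX muscle was then -0.56 for Myh2 (limma adjusted p = 0.587) and 0.46 for Myh1 (limma adjusted p = 0.694), the latter of the opposite sign. The CDTX effect in sham mice was -1.41 for Myh1 (limma adjusted p = 0.0945) and 0.35 for Myh4 (limma adjusted p = 0.52). With all 16 arrays Myh1 was called in 0 of the 4 effects, at 0.70 for CDTX in sham mice and -0.86 and -0.55 for SCI, and Myh2 was not called for CDTX in SCI mice (-0.37). After median scaling the SCI effect on Myh1 in saline muscle was -0.05 and the CDTX effect on Myh4 in sham mice 0.14, neither called.

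**Figure D2:**
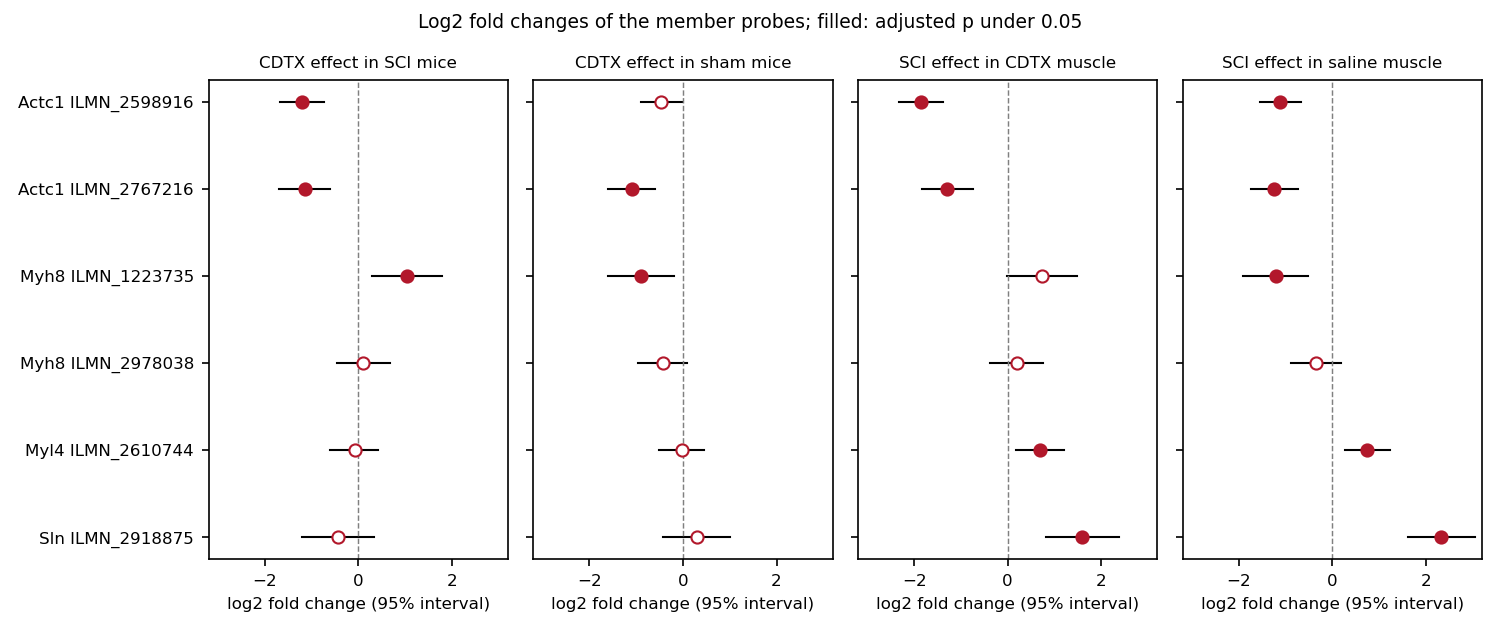
Log2 fold change (horizontal axis) of each probe (vertical axis) in the 2 CDTX effects and the 2 SCI effects, with 95% intervals as lines; filled points passed the adjusted p threshold. Sln and Myl4 are above 0 and Actc1 below 0 in both SCI panels, and Myh8 ILMN_1223735 has opposite signs in the CDTX panels.

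Over the 6 probes, the number called was set beside the share of all 14763 probes called in the same comparison. For CDTX in SCI mice 3 of 6 were called, 1 higher and 2 lower, beside 42.9% of all probes, 20.4% higher and 22.5% lower. For CDTX in sham mice 2 of 6 were called, both lower, beside 48.9% of all probes, 23.1% higher and 25.8% lower. These counts are near the share of all probes and are no result about the genes.

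For SCI in CDTX muscle 4 of 6 were called, 2 higher (Myl4 and Sln) and 2 lower (both Actc1 probes), beside 29.8% of all probes, 14.9% in each direction. For SCI in saline muscle 5 of 6 were called, 2 higher and 3 lower, beside 29.5% of all probes, 14.8% higher and 14.6% lower. The probes thus did not move one way in either SCI comparison. The median log2 fold change of the 6 was -0.26 and -0.44 in the CDTX effects and 0.45 and -0.73 in the SCI effects, beside -0.05, -0.04, 0.01 and -0.01 over all probes.

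SCI+CDTX against Sham+Saline, both agents against neither, gave 4 of 6 called beside 46.5% of all probes (23% higher and 23.6% lower), with Sln higher by 1.89 (limma adjusted p = 0.000322), Myl4 higher by 0.67 (limma adjusted p = 0.0319) and both Actc1 probes lower. The Myl4 difference missed the threshold without SCI+CDTX replicate 3 or 4 or Sham+Saline replicate 1 or 3 (0.65, 0.55, 0.56 and 0.55), and with all 16 arrays it was 0.24 (limma adjusted p = 0.593). SCI+Saline against Sham+CDTX, each agent alone, gave 3 of 6 beside 47.8% (24.7% higher and 23.2% lower), with Sln higher by 2.03 (limma adjusted p = 7.38e-05) and Myl4 by 0.78 (limma adjusted p = 0.0081). On all 16 arrays this Myl4 difference was 0.78 (limma adjusted p = 0.0682), and with the probe difference score -1.41 (limma adjusted p = 0.0533), a change of sign. That of Sln was 2.30 (limma adjusted p = 0.0402) with the score. Myh8 ILMN_1223735, at -0.31 and not called, was called with the score at -3.39 (limma adjusted p = 0.003). The interaction gave 1 of 6, Myh8 ILMN_1223735, beside 23.6% (12% positive and 11.6% negative). These comparisons share groups with those above and are not independent of them.

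The other cardiac and developmental sarcomere genes are read from a list of 18, of which 8 had a kept probe. They were mostly lower with either agent. With CDTX 0 rose and 7 fell in SCI mice (median log2 fold change -1.03), and 1 rose and 6 fell in sham mice (median -1.27). With all 16 arrays 4 fell with CDTX in SCI mice (median -0.74), after median scaling 4 fell in sham mice (median -0.72), and with the probe difference score 0 rose and 6 fell in sham mice (median -2.22). Over all 10952 genes 22.1% rose and 22.2% fell with CDTX in SCI mice, and 23.7% rose and 26.9% fell in sham mice. With CDTX Myoz2, a Z-disc protein of slow and cardiac fibres, fell by 1.60 on the log2 scale in SCI mice and fell by 2.50 in sham mice, the largest falls of the list. Csrp3, a muscle LIM protein, fell by 1.17 in SCI mice and fell by 1.58 in sham mice.

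With SCI 0 of these 8 rose and 5 fell in each kind of muscle (median log2 fold change -0.67 in CDTX muscle and -0.83 in saline muscle), beside 16.4% of all genes that rose and 15.8% that fell in CDTX muscle and 14.7% and 15.8% in saline muscle. Casq2, the cardiac and slow calsequestrin, fell by 1.85 on the log2 scale and Myh7, the slow and cardiac myosin heavy chain, by 1.42 with SCI in saline muscle. In CDTX muscle the lowest were Myl6b, which fell by 1.72 on the log2 scale, and Myh6 (alpha-cardiac myosin), which fell by 1.04. Sln and Myl4 were higher with SCI while 0 of these 8 genes was called higher. With the probe difference score 0 of 8 were called with SCI in CDTX muscle (median 0.62, the opposite sign), and with all 16 arrays 2 fell (median -0.46). After median scaling 1 rose and 3 fell with SCI in saline muscle (median -0.38). Myh6 and Myh7 are near copies in sequence, and their probes may not separate them.

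The adult slow sarcomere genes, 8 of 8 listed with a kept probe, fell with CDTX in 7 of 8 cases in each surgery group (medians -1.39 and -1.72), and none rose. Over all genes 22.1% rose and 22.2% fell with CDTX in SCI mice, and 23.7% rose and 26.9% fell in sham mice. With SCI 16.4% rose in CDTX muscle and 14.7% in saline muscle, and 15.8% fell in each. Myl2, the slow and ventricular regulatory light chain, fell by 3.07 on the log2 scale with CDTX in SCI mice and fell by 2.31 in sham mice. The slow troponin T gene Tnnt1 fell by 1.46 with CDTX in SCI mice, fell by 1.76 in sham mice and was not called with SCI (-0.01 and -0.31). With SCI 1 rose and 4 fell in CDTX muscle (median -0.53) and 0 rose and 5 fell in saline muscle (median -0.66), and Mybpc1 was the 1 that rose, by 0.78. With the score 0 of 8 were called with SCI in CDTX muscle (median 0.89), and after median scaling 2 fell in saline muscle (median -0.21). On all 16 arrays 1 fell in CDTX muscle (median -0.19) and 3 in saline muscle. With CDTX in sham mice the median with the score was -3.54.

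Of the adult fast sarcomere genes 14 of 15 listed had a kept probe, and 9 of the 14 lay within 1 log2 unit of the brightest probe on all 15 arrays. Their small differences do not show stable genes. With CDTX 0 rose and 2 fell in SCI mice and 2 rose and 3 fell in sham mice, and with SCI 0 rose and 4 fell in CDTX muscle and 0 rose and 3 fell in saline muscle. The shares of all genes that rose in these 4 effects were 22.1%, 23.7%, 16.4% and 14.7%. Those that fell were 22.2%, 26.9%, 15.8% and 15.8%. The counts that rose, and those that fell with CDTX, were below these shares. Those that fell with SCI, 4 and 3 of 14, were above them but rest on few genes. The medians of the adult fast genes lay between -0.11 and 0.08, and after median scaling between -0.29 and -0.03. The fast troponin T gene Tnnt3 was not called in any of the 4 effects (0.07, -0.16, 0.14 and -0.09). Casq1, the fast calsequestrin and one of the dimmer of these probes, fell by 2.19 on the log2 scale with SCI in saline muscle and fell by 1.34 in CDTX muscle. Under the probe difference score 0 of 14 were called with SCI in CDTX muscle, Casq1 at -1.50 (limma adjusted p = 0.0919) included, and 0 rose and 1 fell with CDTX in sham mice. With all 16 arrays 2 fell with SCI in each kind of muscle, 1 fell with CDTX in SCI mice, and 1 rose and 3 fell in sham mice. After median scaling 5 fell with CDTX in SCI mice and 1 rose and 6 fell in sham mice.

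**Figure D3:**
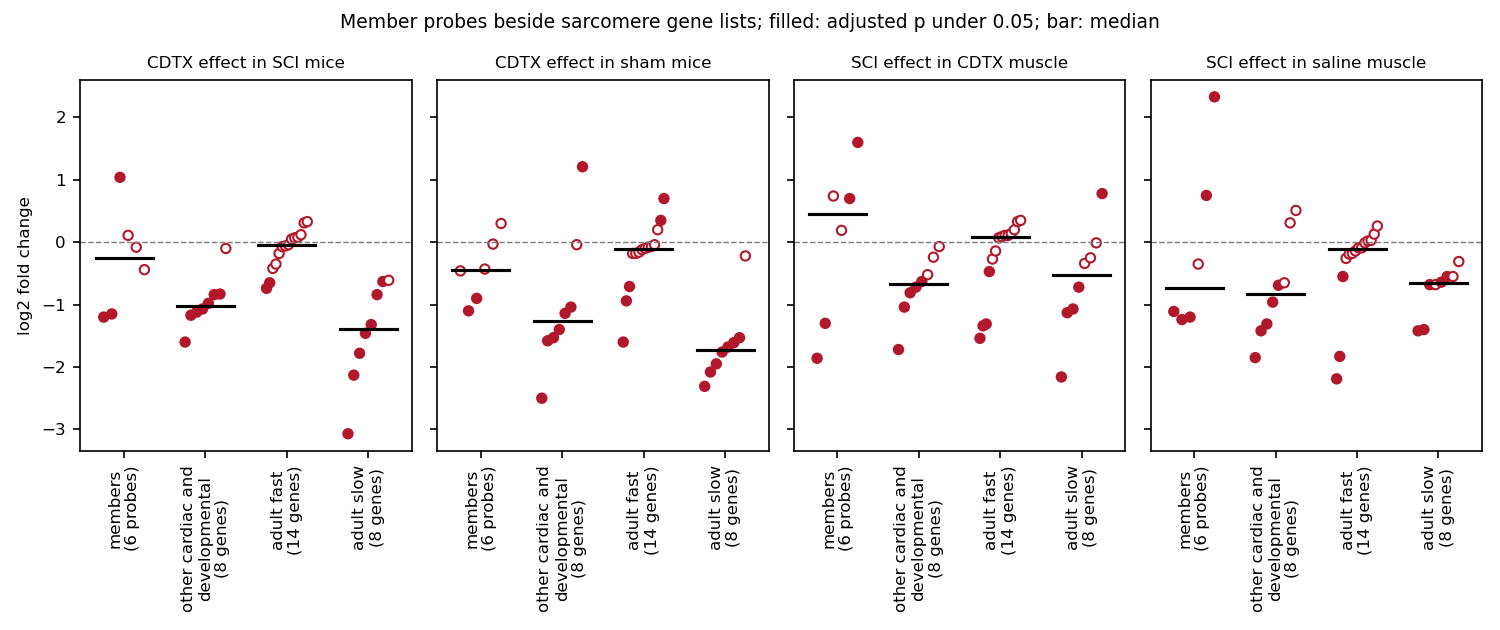
Log2 fold change (vertical axis) of the 6 probes and of the kept genes of the other cardiac and developmental, adult fast and adult slow sarcomere lists, in the 4 effects; filled points passed the adjusted p threshold and bars are medians. The adult slow genes and the other cardiac and developmental genes lie mostly below 0, the adult fast genes, most of them among the brightest probes of the array, near 0, and the 6 probes on both sides.

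Denervation genes and myogenic regulators were read beside Sln and Myl4 in the SCI comparisons. Over all 10952 genes 14.7% rose and 15.8% fell with SCI in saline muscle, and 16.4% rose and 15.8% fell in CDTX muscle. With CDTX 22.1% rose and 22.2% fell in SCI mice, and 23.7% rose and 26.9% fell in sham mice. Of 11 denervation genes 10 had a kept probe. With SCI 9 rose and 0 fell in saline muscle (median 1.98), and 5 rose and 0 fell in CDTX muscle (median 0.59). Chrng, the fetal acetylcholine receptor subunit, rose by 3.05 and Musk, a kinase of the neuromuscular junction, by 2.68 with SCI in saline muscle. With CDTX 0 rose and 6 fell in SCI mice (median -0.50) and 4 rose and 0 fell in sham mice (median 0.26). Once the probe difference score was included, 2 rose in sham mice (median -0.17), 4 fell in SCI mice, and 3 rose with SCI in CDTX muscle. On all 16 arrays 4 fell with CDTX in SCI mice, and after median scaling 3 fell there and 6 rose and 1 fell in sham mice.

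Of 13 myogenic regulators and fusion genes 9 had a kept probe. Beside the counts below, 14.7% of all genes rose with SCI in saline muscle and 16.4% in CDTX muscle, and 15.8% fell in each. With CDTX 22.1% rose and 22.2% fell in SCI mice, and 23.7% rose and 26.9% fell in sham mice. With SCI 5 rose and 0 fell in saline muscle (median 0.63) and 4 rose and 2 fell in CDTX muscle (median 0.04), and with CDTX 0 rose and 6 fell in SCI mice (median -0.58) and 3 rose and 0 fell in sham mice (median 0.10). With the score 1 rose and 0 fell with SCI in CDTX muscle, 3 rose and 3 fell with CDTX in sham mice, and 4 fell in SCI mice. After median scaling 5 rose with CDTX in sham mice (median 0.55), and 3 rose and 3 fell with SCI in CDTX muscle. Myog (myogenin, a driver of muscle differentiation) rose by 3.34 and Myod1 (a muscle-determining factor) by 2.62 with SCI in saline muscle. In CDTX muscle Myog rose by 1.23 and Mef2c, a cofactor of the same programme, fell by 2.01 on the log2 scale, and with the score neither was called (1.08 and 0.31).

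Markers of other cells were read in the same arrays. Of 5 heart muscle defining genes Myh6 alone had a kept probe, with group means of 4.67 to 7.11. Nppa and Ryr2 were detected on 0 of 16 arrays, Myl7 on 1 and Tnni3 on 3, so apart from Myh6 the heart-defining transcripts were at or near the background. The 5 skeletal muscle fibre markers had a summed log2 level of 16.22 to 16.38 on the 15 arrays, and with SCI none was called. All 5 lay within 1 log2 unit of the brightest probe on every array, so this sum does not show that the fibre content was constant.

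The 6 macrophage markers rose with CDTX in SCI and in sham mice, 6 of 6 each, with summed log2 levels of 13.40 to 13.96 in SCI+CDTX and 13.57 to 13.83 in Sham+CDTX against 9.39 to 11.67 in SCI+Saline and 9.60 to 10.69 in Sham+Saline. With SCI 2 of 6 rose in each kind of muscle, and with the probe difference score 0 in CDTX muscle. Over all genes 22.1% rose and 22.2% fell with CDTX in SCI mice, and 23.7% rose and 26.9% fell in sham mice. With SCI 16.4% rose in CDTX muscle and 14.7% in saline muscle, and 15.8% fell in each. The macrophage markers rose with CDTX in both surgery groups, whereas the CDTX effect on Myh8 ILMN_1223735 was 1.04 in SCI mice and -0.90 in sham mice. The part of these markers in the CDTX effects on Actc1 and Myh8 was not tested. Of 5 fibroadipogenic progenitor markers 3 rose with CDTX in SCI mice and 5 in sham mice. With SCI 2 fell in CDTX muscle and 1 fell in saline muscle. With the score 0 of 5 were called with CDTX in sham mice (median 0.35 in place of 1.38) and 0 with SCI in CDTX muscle.

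Of 4 kept neutrophil markers 0 were called with CDTX in either surgery group. With SCI 1 rose in CDTX muscle and 2 rose in saline muscle. In Sham+Saline the log2 levels of S100a8 ran from 4.43 to 12.72 (SD 3.88, n = 4) and those of S100a9 from 4.21 to 11.3. The CDTX effect on S100a9 was 2.16 (SE 1.39) in SCI mice and 0.19 (SE 1.28) in sham mice. With such wide spreads the 0 calls do not show that these markers were unchanged by CDTX. Of 5 kept smooth muscle markers 1 rose with SCI in CDTX muscle and 2 fell in saline muscle, and with CDTX 1 rose in SCI mice and 2 fell in sham mice. With the score 0 smooth muscle markers were called with SCI in CDTX muscle, and 1 fell with CDTX in sham mice. Of 4 endothelial markers 1 rose with SCI in CDTX muscle and 3 fell in saline muscle, and with CDTX 1 rose in SCI mice and 2 fell in sham mice. With the score 0 endothelial markers were called with SCI in CDTX muscle, and 1 fell with CDTX in sham mice. Beside these counts, 16.4% of all genes rose with SCI in CDTX muscle and 14.7% in saline muscle, and 15.8% fell in each. With CDTX 22.1% rose and 22.2% fell in SCI mice, and 23.7% rose and 26.9% fell in sham mice. Counts of 1 marker are near these shares and are no result about the cells. The part of these cells in the SCI effects on Sln, Myl4 and Actc1 was not tested.

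Over the 15 arrays, the probes of a gene had correlated levels. Pearson's r was 0.928 between the Actc1 probes and 0.768 between the Myh8 probes, and 0.788 and 0.806 after the group means were taken out. Sln and Myl4 had an r of 0.816, which was 0.504 within groups. Sln and Actc1 ILMN_2598916 had an r of -0.663 across all arrays and of -0.0079 within groups, so their opposite course lies between the groups. These are descriptions over arrays that share groups, slides and a normalization.

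The genes whose levels were most like each member, by Pearson's r over 15 arrays and 14763 probes, were as follows. For Actc1 they were Vdac1 (r = 0.984), St3gal6 (0.97) and Klhdc1 (0.963), and Vdac1 had group means of 11.10, 10.71, 10.33 and 9.38 in Sham+Saline, Sham+CDTX, SCI+Saline and SCI+CDTX. For Sln they were Slc4a3 (0.94), Ddit4 (0.925) and Kng2 (0.923), and Ddit4 had group means of 6.33, 6.37, 7.67 and 7.66 in the same order of groups. For Myl4 they were Pkig (0.891), Lsm2 (0.876) and Nup88 (0.875), and for Myh8 Capn6 (0.889), Pwwp3a (0.87) and Fam117a (0.869).

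Promoter sequence was read for the members from RefSeq (GRCm38.p6), where 5 of the 6 genes had an entry and Sln had none. In the 250 bases before the start, on both strands, 3 motifs were searched: the E-box CANNTG bound by myogenic factors, the CArG box bound by serum response factor, and the MEF2 site. Of 32851 promoters 66.2% held an E-box, 1.47% a CArG box and 2.92% a MEF2 site. The sequences of Actc1 and Myh8 are shown because, of the members measured, these hold matches, which are in capitals within the 150 bases before the start.
Actc1 chr2:114052876-114053025, minus strand: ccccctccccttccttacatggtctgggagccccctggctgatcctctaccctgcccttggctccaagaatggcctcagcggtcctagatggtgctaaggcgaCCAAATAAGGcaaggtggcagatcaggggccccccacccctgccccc
Myh8 chr11:67276974-67277123, plus strand: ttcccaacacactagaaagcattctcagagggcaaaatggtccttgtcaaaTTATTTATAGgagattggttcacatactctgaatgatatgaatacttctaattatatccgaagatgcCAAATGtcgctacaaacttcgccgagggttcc
The Actc1 window holds a CArG match 47 bases before the start. The Myh8 window holds a MEF2 match 99 bases and an E-box 32 bases before the start, and these do not overlap. The Myl4 window held none of the 3 motifs by these letters. A match is a description of letters, and binding was not measured here.

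**Figure D4:**
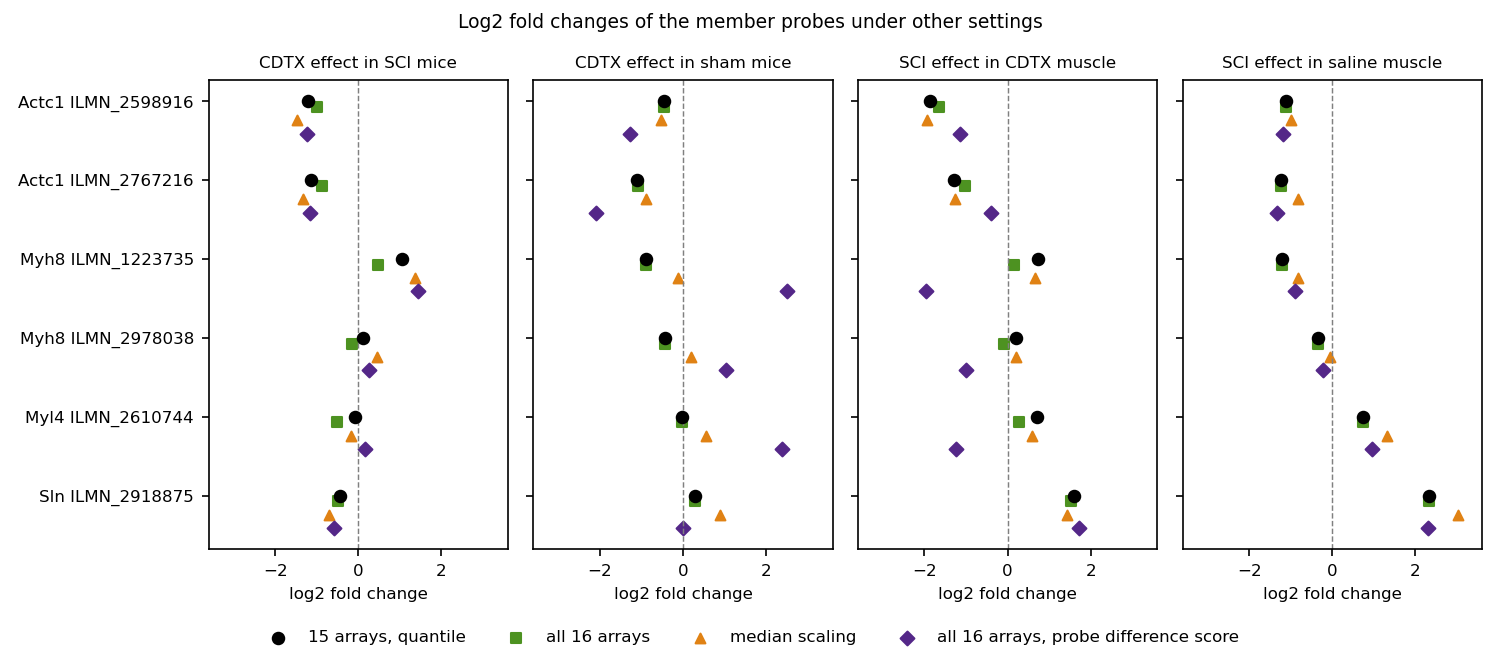
Log2 fold change (horizontal axis) of each probe in the 4 effects under the setting of the text (black circles) and 3 others: all 16 arrays, median scaling and all 16 arrays with the probe difference score. Sln in saline muscle stays between 2.29 and 3.03, while Myh8 ILMN_1223735 and Myl4 change sign in sham mice and in CDTX muscle with the score.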

How the data were processed

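The deposited table, per the file headers, gives for each probe and array a mean bead intensity with no normalization and no background subtraction, the bead number and a detection p-value. Per the submitters' processing notes GenomeStudio 2011.1 was used. The authors also deposited a table of intensity group means after average normalization and background subtraction, with p-values whose correction is not given in the sources used here.

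From the raw intensities of 15 arrays, neqc in limma 3.58.1 (R 4.3.3) made background-corrected, quantile-normalized log2 levels (offset 16). The filter kept a probe if 3 or more arrays had detection p-values under 0.05. Symbols were updated through Entrez identifiers for 23681 probes, of which 4172 changed. The kept probes were all fitted in one limma model of 4 group means, and p-values were adjusted over them by Benjamini-Hochberg. The fit was tested on simulated data. For the 12 gene lists 1 probe per gene, the brightest, was used. Named list genes were the 2 highest and 2 lowest called at most, and partners of the members. Members and lists were chosen with earlier results of these data known. Arrays had r of 0.883 to 0.994 across probes, 0 pairs were identical, and 0 per-sample columns were left unused. The number of arrays limits the precision. Alternatives are given in the closing section.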

Additional observations from a re-analysis of the deposited data

Results flagged for a closer look

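On 1 of 24 tested combinations of probe and group, 1 array stood apart from its group. Myl4 in Sham+CDTX replicate 1 had a log2 level of 10.07 while the other 3 arrays lay at 9.10, 9.12 and 9.13. The gap was 0.968 of the whole range of the group, above Dixon's 95% critical value for 4 samples, and chance flags about 1 in 20 groups of this kind. The same array had the highest level of its group for Sln and both Myh8 probes.

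The CDTX effect on Myh8 ILMN_1223735 differed between SCI and sham mice by 1.94 on the log2 scale (SE 0.49, limma adjusted p = 0.00742), as a test of the difference itself. The second Myh8 probe gave 0.54 (limma adjusted p = 0.317), and with all 16 arrays the first gave 1.37 (limma adjusted p = 0.195).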

How the results depend on the processing

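Of 426 single-probe values under alternatives other than leaving out an array, 360 kept their direction and their side of the threshold, 28 fell below it, 7 passed it and 31 changed sign. With 1 array left out, 576 of 630 did so, 20 fell below it, 5 passed it and 29 changed sign. The causes were not tested unless the alternative itself shows them.

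The SCI effect on Sln in saline muscle was called under each alternative, and that in CDTX muscle under each but the probe difference score. Of the 6 probes, the number called for CDTX in sham mice, 2 in the text, was 1 with all 16 arrays, with no background correction, with no detection filter and with a trended, robust eBayes, and 1 to 3 with 1 array left out. The count for SCI in CDTX muscle, 4 in the text, was 0 with the probe difference score, under which 262 of all probes were called in place of 4393. The count for SCI in saline muscle, 5 in the text, was 3 with all 16 arrays. The interaction count, 1 in the text, was 0 with all 16 arrays and with the score, 3 with median scaling and 1 to 2 with 1 array left out. Over all probes, all 16 arrays gave 2613 calls for SCI in CDTX muscle and 1532 interactions in place of 3483. The score gave 3088 calls for CDTX in sham mice in place of 7219, 3771 for each agent alone in place of 7064, and 43 interactions. The list counts and the values of list genes under median scaling, all 16 arrays and the score, and the distances to the brightest probe, were added after seeing the data.

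With the score, these values changed sign. Actc1 ILMN_2598916 was 0.09 for SCI alone against CDTX alone and 0.03 in the interaction, and Actc1 ILMN_2767216 was 0.78 and 0.93. Myh8 ILMN_1223735 was 2.49 for CDTX in sham mice, 0.52 for both agents against neither, -1.96 for SCI in CDTX muscle and -1.06 in the interaction. Myh8 ILMN_2978038 was 1.04, 0.04, -1.01 and -0.78 in the same comparisons and -1.27 for SCI alone against CDTX alone. Myl4 ILMN_2610744 was 0.17 and 2.37 for CDTX in SCI and sham mice, -1.41 for SCI alone against CDTX alone and -1.24 for SCI in CDTX muscle. Of these Myl4 values 2.37 was called (limma adjusted p = 0.00783). Sln ILMN_2918875 was -0.01 for CDTX in sham mice.

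With median scaling, Actc1 ILMN_2767216 was 0.06 for SCI alone against CDTX alone and Myl4 ILMN_2610744 was 0.55 for CDTX in sham mice. Myh8 ILMN_1223735 was 0.54 for both agents against neither, and Myh8 ILMN_2978038 was 0.19 for CDTX in sham mice, 0.38 for both against neither and -0.25 for SCI alone against CDTX alone. Sln was called for CDTX in sham mice at 0.90 (limma adjusted p = 0.0484) and in the interaction at -1.61 (limma adjusted p = 0.0315). This scaling moved the median over all probes to 0.32 for CDTX in sham mice, 0.17 for SCI in saline muscle, 0.32 for both against neither, -0.10 for SCI alone against CDTX alone and -0.24 for the interaction. The share of calls that were higher was 64.9%, 85.1%, 44.9% and 86.4% in the 2 CDTX and 2 SCI effects in place of 47.6%, 47.3%, 49.9% and 50.3%. It was 82.6%, 35.1% and 17.7% in the other comparisons in place of 49.4%, 51.5% and 51%. With the score 70.2% of the calls for SCI in CDTX muscle and 20.9% of the interactions were higher.

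With all 16 arrays, Actc1 ILMN_2767216 was 0.21 in the interaction, and Myh8 ILMN_2978038 was -0.16 for CDTX in SCI mice and -0.08 for SCI in CDTX muscle. With array weights, which gave SCI+CDTX array 2 a weight of 0.228, the interactions of Actc1 ILMN_2767216 and Myl4 ILMN_2610744 were 0.14 and 0.03.

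With 1 array left out, signs changed within these ranges. For SCI alone against CDTX alone, Actc1 ILMN_2767216 was -0.33 to 0.06 and Myh8 ILMN_2978038 -0.10 to 0.32. In the interaction, Actc1 ILMN_2767216 was -0.27 to 0.22 and Myl4 ILMN_2610744 -0.20 to 0.19. For CDTX in SCI mice, Myh8 ILMN_2978038 was -0.09 to 0.29 and Myl4 ILMN_2610744 -0.20 to 0.06. For CDTX in sham mice, Myl4 ILMN_2610744 was -0.27 to 0.12 and Sln ILMN_2918875 -0.05 to 0.54. For both agents against neither, Myh8 ILMN_1223735 was -0.52 to 0.08, and for SCI in CDTX muscle Myh8 ILMN_2978038 was -0.01 to 0.43.

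The labels reuse replicate numbers across groups without saying that same-numbered arrays share anything else. Same-numbered arrays had a median r of -0.0229 between their deviations from the group means (21 pairs, 3 of them over 0.1). Arrays of different numbers had a median r of 0.0118 (63 pairs). These correlations, from -0.271 to 0.377 for same-numbered arrays, cannot exclude that such arrays share more than a number. With a replicate block the number of the 6 probes called moved by at most 1.5 times in each comparison, Myl4 missed the threshold at 0.67 (limma adjusted p = 0.0666) for SCI in CDTX muscle and at 0.64 (limma adjusted p = 0.0554) for both against neither, and Actc1 ILMN_2767216 in the interaction (0.04) and Myh8 ILMN_2978038 for CDTX in SCI mice (-0.01) changed sign. The dim Myh8 ILMN_2978038 is limited by its signal over background, and the number of arrays limits all comparisons.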
